A study of Rattus norvegicus with 6 samples.

Results

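The 10 genes described here act in cholesterol export and trafficking and were compared between young and old vascular smooth muscle (VSM) cells. They encode the liver X receptors (LXRs) Nr1h2 and Nr1h3, the exporters Abca1 and Abcg1, the ubiquitin ligase Mylip, the lipid carrier Apoe, the sterol-esterifying enzymes Lcat and Soat1, and the late endosomal sterol carriers Npc1 and Npc2. The genes were chosen by symbol, and all 10 were found among the 14475 rows of the count table with 1 row each. Mylip and Abca1, which LXRs can switch on, were higher in all 3 old libraries than in any young library, by 4.56-fold and 2.56-fold. That order of libraries held in 14.5% of all rows. Both genes passed an adjusted p of 0.05 in DESeq2 but not in edgeR or limma-voom. Apoe was 3.43-fold higher on average but its groups overlapped. Abcg1, also an LXR target, was the only member with a lower mean in old VSM cells, and the receptors, Lcat, Soat1, Npc1 and Npc2 differed by less than 1 on the log2 scale.

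The soleus feed artery (SFA) supplies blood to the soleus muscle, and the VSM cells were cultured from it in male Fischer 344 rats. The young group was 4 months old (n = 3) and the old group 24 months old (n = 3), and the labels name no treatment, transgene or mutation in either. Both groups were grown in medium with fetal bovine serum before polyadenylated RNA was sequenced, 1 library for each culture, so the values describe cultured cells and not the artery wall. The study names 3 rats per group, but the labels do not tie a library to a rat, so p-values measure only the spread between these samples.

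Cells cannot break down the sterol ring, so surplus cholesterol is stored as ester, passed on to other membranes or exported. Cholesterol taken up with lipoproteins is freed in the lysosome, handed from NPC2 to NPC1 and delivered to other membranes, where SOAT1 can esterify it. Oxysterols, made from cholesterol, activate LXRs, which bind DNA together with retinoid X receptors and raise transcription of ABCA1, ABCG1, APOE and MYLIP. ABCA1 loads lipid-poor apolipoproteins and ABCG1 loads high-density lipoprotein (HDL), while MYLIP (also called IDOL) is a ubiquitin ligase that limits lipoprotein uptake. In the artery wall, VSM cells that fill with cholesterol ester can become foam cells.

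Abca1 and Mylip carried the clearest difference among the 10 genes, and the 250 bases before their starts are shown to let a reader compare them. The sequences are RefSeq's for the rat build GRCr8, in the direction of the gene, which is the minus strand for both. The Abca1 stretch lies at chr5:72596474-72596723 and the Mylip stretch at chr17:19514472-19514721. Capitals mark letters that matched a searched motif.
Abca1: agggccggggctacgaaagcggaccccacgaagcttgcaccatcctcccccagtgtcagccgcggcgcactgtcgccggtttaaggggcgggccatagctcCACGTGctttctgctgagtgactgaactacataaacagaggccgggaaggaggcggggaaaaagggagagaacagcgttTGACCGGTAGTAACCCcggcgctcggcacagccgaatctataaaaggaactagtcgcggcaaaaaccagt
Mylip: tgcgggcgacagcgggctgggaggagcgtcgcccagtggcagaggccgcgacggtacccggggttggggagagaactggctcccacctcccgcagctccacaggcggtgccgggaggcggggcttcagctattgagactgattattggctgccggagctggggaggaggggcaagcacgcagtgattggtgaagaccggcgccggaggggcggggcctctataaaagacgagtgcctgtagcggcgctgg
In the Abca1 stretch, the first capitals are an E-box, CACGTG, at positions -149 to -144 counted from the start. The second capitals, at positions -70 to -55, read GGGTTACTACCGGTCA on the opposite strand and differ at 3 bases from DR4, the LXR motif of AGGTCA, 4 free bases and AGGTCA.

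Promoters from 250 bases before to 50 bases after the start were searched on both strands. RefSeq entries matched 9 of the 10 genes, with 11 starts in all, and none matched Abcg1. DR4 with at most 2 mismatches was in none of those starts and in 2.93% of 33469 rat promoters. Allowing 3 mismatches, a limit chosen after the Abca1 promoter was seen, found DR4 in Abca1, Lcat, Npc1 and Npc2 and in 21.9% of all promoters, so such a match is common. The sterol regulatory element, TCAC, a free base and CCAC, was in none of the members' starts and in 1.12% of promoters. The exact E-box was in Abca1 alone among the members and in 6.42% of promoters. CLEAR is a lysosomal gene motif that contains the E-box (GTCAC followed by GTGAC, at most 2 mismatches). It was in Apoe at 2 of its starts and in 9.28% of promoters. The windows of those 2 starts overlap and hold the same site, GCCTCGTGAC. The Mylip promoter matched none of the motifs. A match is a description of the letters and not evidence of binding, and DR4 sites outside these windows were not looked for.

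The 6 libraries held between 44235674 and 59700887 counts on genes. Each library held more counts than the number of reads that the paper states for any sample. Even numbers made up 68.7% to 71.1% of a library's counts between 1 and 19. Both mates of a read pair may thus have been counted, and a low count may rest on fewer fragments than it states. All 8 smooth muscle markers examined were detected in every library, and their summed level was 11207 to 20995 CPM (counts scaled to a common library size) in young and 3448 to 5562 CPM in old VSM cells. Old replicate 1 was the old library nearest to the young mean in 51.1% of all rows, against 25.7% for old replicate 2 and 23.2% for old replicate 3. With it, edgeR's quasi-likelihood test called 1 of 14475 rows at an adjusted p under 0.05, and without it 1380. For the 10 members, calls that rest on this library are given with and without it.

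None of the 10 members passed an adjusted p of 0.05 in edgeR, which called 0.00691% of rows, or in limma-voom, which called 0%. DESeq2's Wald test, the test the study used, called 3 members as higher in old VSM cells (Mylip, Abca1 and Apoe) and none as lower, against 5.71% and 6.75% of the 14183 rows it tested. All 3 also had a log2 fold change of at least 1, which 2.3% of rows reached in that direction. At an adjusted p under 0.1, edgeR called Mylip and Abca1, against 2.06% of rows higher in old. At an unadjusted p under 0.05 in edgeR, 5 members were higher (Mylip, Abca1, Apoe, Npc1 and Npc2) and 0 lower, against 11.2% of rows higher. The median log2 fold change was 0.42 over the 10 members and 0.02 over all rows. Of the members, 9 had a higher mean in old VSM cells and 1 a lower, compared with 7534 and 6941 of all rows. Mylip, Abca1 and Npc1, 3 of the members, had all old libraries above all young ones, as had 14.5% of rows.

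**Figure D1:**
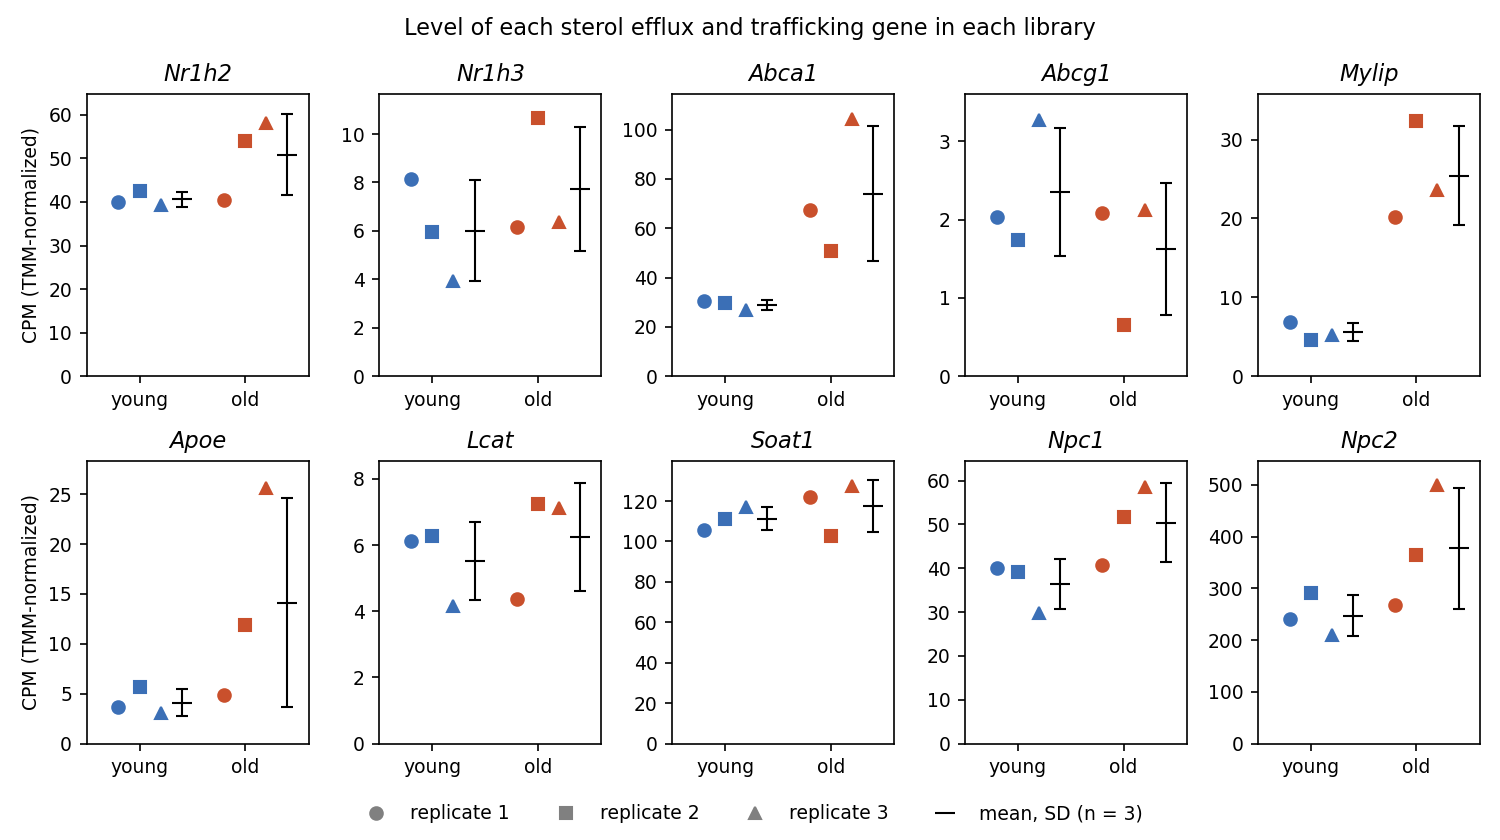
Level of each of the 10 genes in each library, in TMM-normalized CPM on axes that start at 0. Circles, squares and triangles are replicates 1, 2 and 3 of young (blue) and old (orange) VSM cells, and bars are the mean and SD (n = 3). Mylip and Abca1 show 2 separate groups, Apoe spreads from 4.93 to 25.6 CPM among old libraries, and Soat1 lies between 103 and 128 CPM in all 6.

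Levels are given in CPM after TMM normalization, which does not correct for transcript length. Each value is therefore compared with the same gene in other libraries, apart from count ratios and marker sums, which combine genes. In bulk RNA, fewer cells of a type and less RNA per cell cannot be told apart.

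Neither LXR passed a test when all libraries were used. Nr1h2 (ENSRNOG00000019812) encodes LXR-beta, the form that most tissues make. Its level was 40.0, 42.4 and 39.2 CPM in young replicates 1, 2 and 3 and 40.4, 54.0 and 58.2 CPM in old replicates 1, 2 and 3. Old replicate 1 lay inside the narrow young range and the other old libraries above it. Its log2 fold change was 0.33 (SE 0.15), with an edgeR adjusted p of 0.241 and a DESeq2 adjusted p of 0.238. Without old replicate 1, the log2 fold change was 0.47 and the edgeR adjusted p 0.0374.

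Nr1h3 (ENSRNOG00000013172) encodes LXR-alpha, the form known best from liver, fat and macrophages. It was at 8.13, 5.95 and 3.95 CPM in young and 6.17, 10.7 and 6.36 CPM in old VSM cells. The groups overlapped throughout, and only old replicate 2 exceeded the highest young library. A log2 fold change of 0.36 (SE 0.34) had an edgeR adjusted p of 0.534 and a range of 0.06 to 0.64 when each library was left out in turn. In RefSeq's annotation of GRCr8, Nr1h3 overlaps Acp2, and the sources used here do not state whether counting used strand, so some of its reads may belong to Acp2.

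Among the LXR targets, Mylip (ENSRNOG00000017579) showed the largest fold difference of the 10 genes. Mylip was at 6.85, 4.64 and 5.25 CPM in young and 20.2, 32.4 and 23.7 CPM in old VSM cells, from raw counts of 258 to 309 and 1006 to 1685. The lowest old library was above the highest young one by a wide margin. The mean was 5.58 ± 1.14 CPM in young and 25.4 ± 6.29 CPM in old (SD, n = 3), a log2 fold change of 2.19 (SE 0.24). Mylip rose in DESeq2 (adjusted p = 5.66e-14), while edgeR gave an adjusted p of 0.0531 and limma-voom 0.0524, just outside the threshold. Its unadjusted p in edgeR was 5.87e-05. The adjustment gave the same 0.0531 to several genes below, whose unadjusted edgeR p ran from 2.3e-05 (Srebf1) to 0.000257 (Scd2). Equal adjusted values therefore do not mean equal evidence. Leaving out each library in turn kept the log2 fold change between 1.97 and 2.36, and the edgeR adjusted p ran from 0.0262 without old replicate 1 to 0.225.

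Abca1 (ENSRNOG00000018126), the exporter that starts HDL formation, also separated the groups. Its level was 30.6, 29.5 and 26.8 CPM in young and 67.3, 50.7 and 104 CPM in old VSM cells. Young libraries were close together (29.0 ± 2.00 CPM, SD, n = 3), and old libraries were all higher but spread widely (74.1 ± 27.4 CPM, SD, n = 3). The log2 fold change was 1.35 (SE 0.26). Abca1 rose in DESeq2 (adjusted p = 0.000118) and did not pass in edgeR (adjusted p = 0.0737) or limma-voom (0.0826). Its log2 fold change was between 1.03 and 1.56 when a library was left out, with the lowest value without old replicate 3, and the edgeR adjusted p between 0.0504 and 0.250. DESeq2 called both Abca1 and Mylip whichever library was left out.

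Abcg1 (ENSRNOG00000001158), the exporter that works with mature HDL, went the other way on average. It was low, at 2.04, 1.75 and 3.28 CPM in young and 2.09, 0.654 and 2.13 CPM in old VSM cells, from raw counts of 34 to 161. Old replicates 1 and 3 lay within the young range, and old replicate 2 was below every other library. Its log2 fold change was -0.53 (SE 0.50), with an edgeR adjusted p of 0.539, and it was -0.16 without old replicate 2.

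Ratios of raw counts within a library show the same levels without any normalization. They were chosen after the levels had been seen, so they restate the separation of Abca1 and Mylip. An exact permutation test gave a p of 0.1 for each of the 3 ratios below. With 3 libraries in each group it cannot go lower, so no conclusion is drawn from it. The ratio of Abca1 to Abcg1 counts was 15.0, 16.9 and 8.17 in young and 32.2, 77.5 and 49.0 in old libraries, a mean difference of 1.96 on the log2 scale. The ratio of Mylip to Soat1 counts was 0.0648, 0.0417 and 0.0448 in young and 0.166, 0.315 and 0.185 in old, a difference of 2.11. The ratio of Abca1 to Soat1 counts differed by 1.22 on the same scale. All 3 ratios were higher in every old library than in any young one.

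Apoe (ENSRNOG00000018454) encodes an apolipoprotein that carries cholesterol away from cells and back to receptors. It was at 3.68, 5.65 and 3.03 CPM in young and 4.93, 11.9 and 25.6 CPM in old VSM cells. Old replicate 1 lay within the young range, while old replicates 2 and 3 lay above it and differed from each other more than the young libraries did. The mean was 4.12 CPM in young (SD 1.36, n = 3) and 14.1 CPM in old (SD 10.5, n = 3), a log2 fold change of 1.78 (SE 0.59). Apoe rose in DESeq2 (adjusted p = 0.0212) and not in edgeR (adjusted p = 0.166). The DESeq2 call was lost without young replicate 1 (adjusted p = 0.114), young replicate 3 (0.136), old replicate 2 (0.0717) or old replicate 3 (0.218). Without old replicate 3, its log2 fold change was 1.03, and without old replicate 1 it was 2.18 with an edgeR adjusted p of 0.0413.

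Lcat (ENSRNOG00000019573) encodes the plasma enzyme that esterifies cholesterol on HDL. It was at 6.11, 6.27 and 4.17 CPM in young and 4.36, 7.23 and 7.13 CPM in old VSM cells. The groups overlapped and the log2 fold change was 0.18 (SE 0.27), with an edgeR adjusted p of 0.712.

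Soat1 (ENSRNOG00000004111), which makes cholesterol ester inside the cell, had the smallest log2 fold change of the 10 genes in size. It was at 106, 111 and 117 CPM in young and 122, 103 and 128 CPM in old VSM cells. Old replicate 2 was the lowest of the 6 libraries and old replicate 3 the highest. The log2 fold change was 0.08 (SE 0.11), with an edgeR adjusted p of 0.691, and it stayed between 0.01 and 0.16 when a library was left out.

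**Figure D2:**
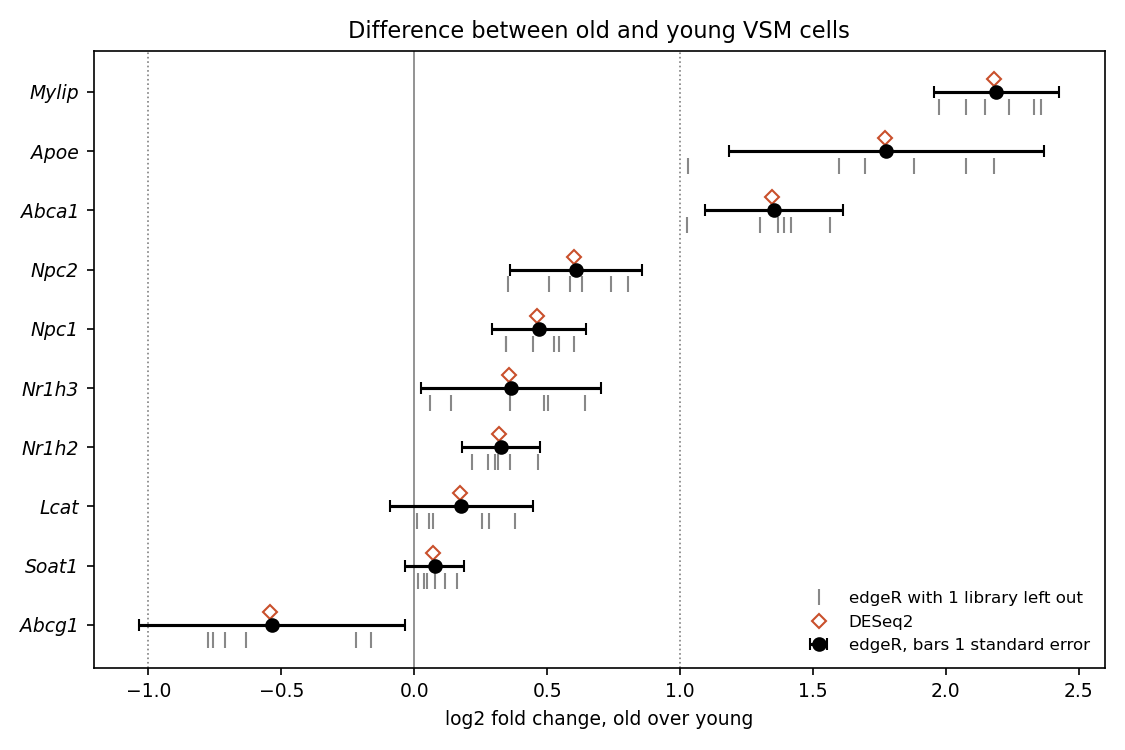
Log2 fold change of each gene, old over young VSM cells, ordered from the highest to the lowest edgeR value. Black points are edgeR values with bars of 1 standard error, diamonds are DESeq2 values, grey ticks are edgeR values with 1 library left out, and dotted lines mark a log2 fold change of 1 in either direction. Mylip, Apoe and Abca1 lie above 1 and only Abcg1, at -0.53, lies below 0.

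The carriers that move cholesterol out of the late endosome both had higher means in old VSM cells, and neither passed a test after adjustment. Npc1 (ENSRNOG00000012016), the membrane protein, was at 40.2, 39.1 and 29.8 CPM in young and 40.8, 51.6 and 58.6 CPM in old VSM cells. All old libraries were above all young ones, but old replicate 1 was above young replicate 1 by less than 1 CPM, and this order was lost when only library size was used for scaling. The log2 fold change was 0.47 (SE 0.18), with an unadjusted p of 0.0351 and an adjusted p of 0.194 in edgeR. In RefSeq's annotation of GRCr8, which is not the build the reads were counted on, Npc1 overlaps Rmc1 and the pseudogene Aktip-ps1, so some of its reads may belong to them.

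Npc2 (ENSRNOG00000012062), the soluble carrier that hands sterol to NPC1, was at 241, 291 and 211 CPM in young and 267, 365 and 500.3 CPM in old VSM cells. Old replicate 1 fell among the young libraries and old replicates 2 and 3 above them. The log2 fold change was 0.61 (SE 0.25), with an unadjusted p of 0.0463 and an adjusted p of 0.214 in edgeR. It was 0.35 without old replicate 3 and 0.81 without old replicate 1. Within a library, the ratio of Npc2 to Npc1 counts was 5.99 to 7.43 in young and 6.55 to 8.54 in old, a mean difference of 0.11 on the log2 scale, and the groups overlapped. The ratio of Apoe to Npc2 counts was 0.0144 to 0.0194 in young and 0.0184 to 0.0511 in old, a difference of 0.95, again with overlap.

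The old libraries did not differ from the young mean to the same degree. Old replicate 1 was the nearest to the young mean for 7 of the 10 members (51.1% of all rows) and the lowest of the old libraries for 7 (36.7% of rows), and it was the highest for none (36.1% of rows). Old replicate 3 was the highest for 7 members, compared with 34.7% of all rows. For Apoe, old replicates 1, 2 and 3 lay 0.26, 1.53 and 2.63 above the young mean on the log2 scale, and for Npc2 0.11, 0.56 and 1.02. Both genes were lowest in old replicate 1 and highest in old replicate 3. Mylip and Abca1 did not follow that order, at 1.86, 2.54 and 2.08 and at 1.22, 0.81 and 1.85. Both were well above the young mean in old replicate 1, where Nr1h3 was at 0.04 and Npc2 at 0.11.

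Without old replicate 1, edgeR called 3 members at an adjusted p under 0.05 (Nr1h2, Mylip and Apoe), all higher in old VSM cells, against 3.73% of rows, and gave Abca1 an adjusted p of 0.0504. DESeq2 then called 6 members as higher (Nr1h2, Abca1, Mylip, Apoe, Npc1 and Npc2), against 11.9% of rows. The coefficient of variation of CPM was larger in old than in young libraries for 9 of the 10 members, as it was for 65.5% of all rows. Its median over the members was 28.6% in old and 18.4% in young, and over all rows 16.8% and 11.8%.

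**Figure D3:**
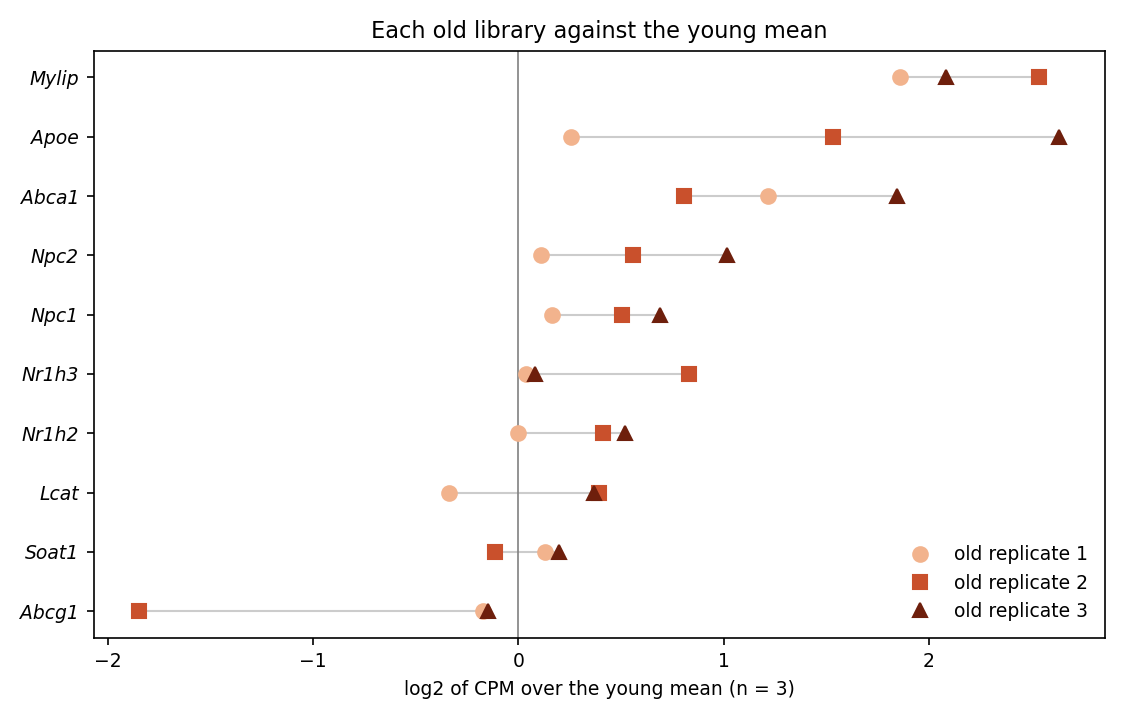
Level of each gene in each old library relative to the young mean (n = 3), as a difference in log2 CPM, with the genes in the order of their fold change. Circles, squares and triangles are old replicates 1, 2 and 3, joined by a line for each gene. Old replicate 1 is near 0 for Npc2, Npc1, Nr1h3 and Nr1h2 but at 1.86 for Mylip and 1.22 for Abca1.

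Genes around the 10 members were described from lists of the pathway, with means ± SD over n = 3 libraries. Of all rows, 7534 had a higher and 6941 a lower mean in old VSM cells. The partners of the LXRs on DNA differed by small amounts. Of 15 measured partners, corepressors and coactivators, 13 had a higher mean in old VSM cells, with a median log2 fold change of 0.12 beside 0.02 for all rows. DESeq2 called 2 as higher and 0 as lower, against 5.71% and 6.75% of the rows it tested, and edgeR called 0. Ncoa1, a coactivator of nuclear receptors, went from 21.4 ± 2.52 to 34.7 ± 4.34 CPM (DESeq2 adjusted p = 0.00149, edgeR 0.0743). Tbl1xr1, a corepressor exchange factor, went from 75.9 ± 6.43 to 117 ± 20.5 CPM (DESeq2 adjusted p = 0.0073, edgeR 0.101). Rxra, the retinoid X receptor alpha, had a log2 fold change of 0.38 (SE 0.14) and an edgeR adjusted p of 0.190.

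LXR target genes other than the members were higher in most cases. Of 15 measured, 13 had a higher mean in old VSM cells and their median log2 fold change was 0.68. DESeq2 called 7 as higher and 0 as lower, against 5.71% and 6.75% of the rows it tested. Srebf1, the regulator of fatty acid synthesis, was at 30.1, 27.4 and 25.5 CPM in young and 122, 86.7 and 140 CPM in old VSM cells. It rose in DESeq2 (adjusted p = 7.75e-18), with a log2 fold change of 2.07 (SE 0.19) and an edgeR adjusted p of 0.0531. Scd2, a desaturase of fatty acids, went from 394 ± 28.6 to 1576 ± 573 CPM (DESeq2 adjusted p = 4.2e-10, edgeR 0.0531). Pltp, a phospholipid transfer protein, and the transporter Abca7 did not pass in either test, at log2 fold changes of 0.68 and 0.26. Srebf1, Scd2, Scd and Fasn are also known targets of the SREBPs, so the list is not particular to the LXRs.

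Partners of efflux outside the cell and at its surface showed no common direction. Of 9 measured HDL and lipoprotein partners, 4 had a higher and 5 a lower mean, and the median log2 fold change was -0.14. DESeq2 called 0 as higher and 1 as lower, against 5.71% and 6.75% of the rows it tested. The gene called was Cav1, the coat protein of caveolae, at 925 ± 207 CPM in young and 424 ± 174 CPM in old VSM cells (DESeq2 adjusted p = 0.00908, edgeR 0.128). Scarb1, the HDL receptor, had a log2 fold change of -0.26 (SE 0.19), and Pon2, a lactonase, one of -0.31 (SE 0.12), and neither passed.

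Genes of lipoprotein uptake were divided, with 10 of 18 higher, 8 lower and a median of 0.04. DESeq2 called 2 as higher and 2 as lower, against 5.71% and 6.75% of the rows it tested. Olr1, a receptor for oxidized LDL, went from 255 ± 127 to 34.8 ± 22.4 CPM (DESeq2 adjusted p = 2.05e-05, edgeR 0.0930).

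Around NPC1 and NPC2, the genes of lysosomal release and sterol transfer were evenly divided, 15 higher and 15 lower of 30 with a median of 0.01. DESeq2 called 4 as higher and 1 as lower, against 5.71% and 6.75% of the rows it tested. The sterol transfer protein gene Gramd1c went from 11.3 ± 1.05 to 4.32 ± 0.852 CPM (DESeq2 adjusted p = 1.2e-08, edgeR 0.0531) and Osbpl11, an oxysterol-binding protein relative, from 35.5 ± 1.43 to 50.8 ± 4.56 CPM (DESeq2 adjusted p = 0.000506, edgeR 0.0700). Lipa, the lysosomal enzyme that frees cholesterol from its ester, had a log2 fold change of -0.09 (SE 0.16).

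On the storage side, 6 of 11 genes of ester formation, ester hydrolysis and droplets had a higher mean, with a median of 0.08. DESeq2 called 1 as higher and 1 as lower, against 5.71% and 6.75% of the rows it tested. Cidea, a droplet protein, had a log2 fold change of -1.22 (DESeq2 adjusted p = 0.0183, edgeR 0.134). Lipe, the hormone-sensitive lipase, had one of 0.78 from raw counts of 53 to 115 (DESeq2 adjusted p = 0.0362, edgeR 0.143). When a library was left out, its DESeq2 call was kept only without old replicate 3 (adjusted p = 0.0398). Nceh1, a cholesterol ester hydrolase, was at -0.03 (SE 0.13), a difference smaller than its standard error, as for Soat1.

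Of 14 measured sterol sensors and enzymes that make or remove oxysterols, 9 had a higher and 5 a lower mean, with a median of 0.18. DESeq2 called 3 as higher and 1 as lower, against 5.71% and 6.75% of the rows it tested. Insig1, which holds back SREBP when sterols are plentiful and is itself a target of SREBP, went from 66.8 ± 8.02 to 279.6 ± 93.7 CPM (DESeq2 adjusted p = 2.46e-10, edgeR 0.0531). Srebf2, the regulator of cholesterol synthesis, had a log2 fold change of 0.53 (SE 0.09) (DESeq2 adjusted p = 2.72e-05, edgeR 0.0636). Ch25h, which makes 25-hydroxycholesterol, ranged from 10 to 418 counts within the young group alone, and its log2 fold change of -1.72 had a SE of 1.38. Cyp27a1, which makes 27-hydroxycholesterol, had a log2 fold change of 1.05 (SE 0.42) and did not pass in edgeR (adjusted p = 0.213) or DESeq2 (0.101).

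The enzymes of cholesterol synthesis had higher means in old VSM cells in most cases. Of 21 measured, 20 had a higher mean in the old group, with 0.67 as the median on the log2 scale. DESeq2 called 13 as higher and 0 as lower, against 5.71% and 6.75% of the rows it tested. Dhcr7 went from 20.8 ± 0.933 to 44.6 ± 7.11 CPM (DESeq2 adjusted p = 1.81e-08) and Tm7sf2 from 6.29 ± 1.44 to 21.9 ± 5.16 CPM (DESeq2 adjusted p = 2.94e-09), each with an edgeR adjusted p of 0.0531. Among old libraries, these genes were highest in old replicate 1 in 16 cases and in old replicate 3 in 5, whereas no efflux or trafficking member was highest in old replicate 1.

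Some of the related genes named above passed in edgeR once old replicate 1 was left out, where it called 1380 of 14475 rows. They were Ncoa1, Tbl1xr1, Srebf1, Scd2, Cav1, Gramd1c, Osbpl11, Insig1, Srebf2, Dhcr7 and Tm7sf2, with adjusted p from 0.0262 to 0.0376. Each had 1 of the 2 lowest edgeR p of its list in these same libraries, so this is not independent support. Others did not pass, among them Cidea (edgeR adjusted p = 0.0803), Olr1 (0.0920), Lipe (0.134) and Pon2 (0.204). The genes that passed kept the direction they had with all libraries.

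**Figure D4:**
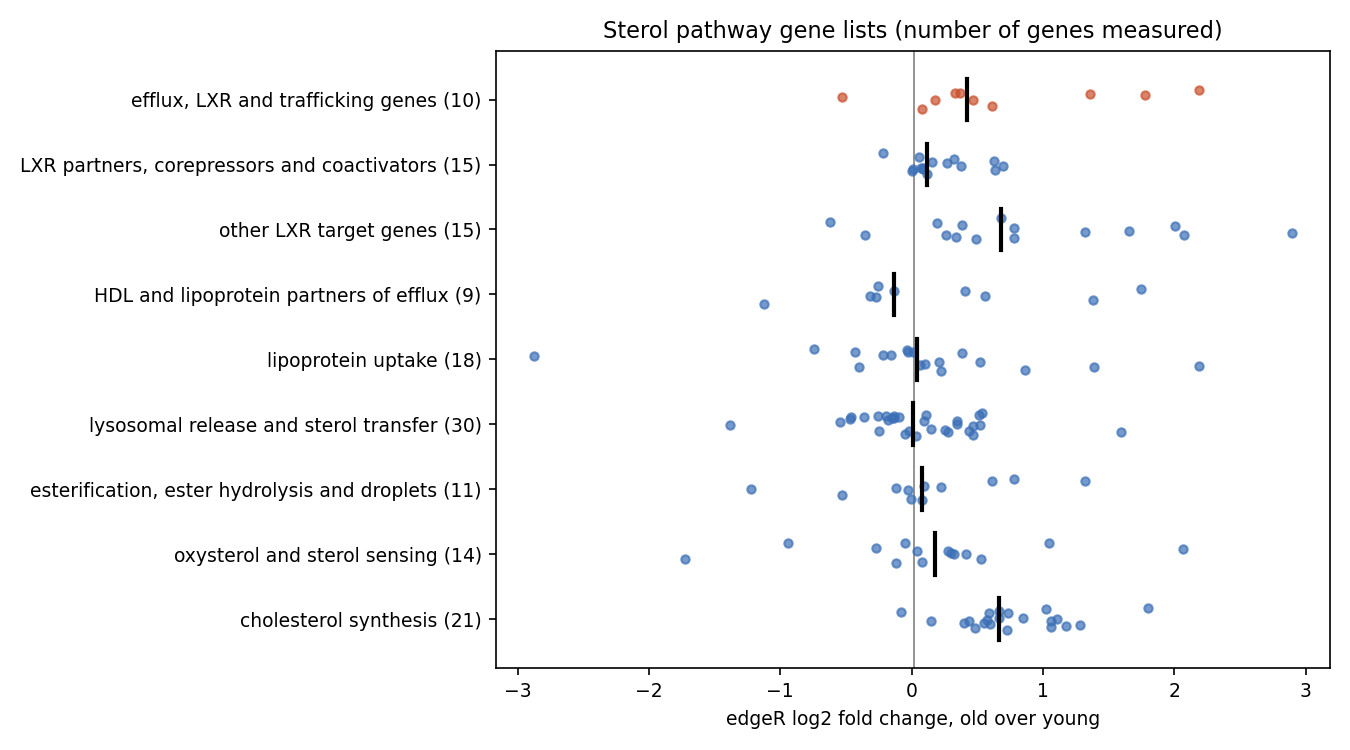
Log2 fold change, old over young VSM cells, of each measured gene in the 10 efflux, LXR and trafficking genes (orange) and in 8 lists of related genes (blue), with the number of measured genes in brackets. Each point is a gene, black bars are list medians, and the grey line is the median of all rows, 0.02. Medians are 0.42 for the 10 genes, 0.68 for other LXR targets and 0.67 for cholesterol synthesis, and between -0.14 and 0.18 for the other 6 lists.

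Markers of other cell types that a culture could hold were measured beside these genes, and their part in the results was not tested. Of the rows it tested, DESeq2 called 5.71% as higher and 6.75% as lower in old VSM cells. All 8 smooth muscle markers had a lower mean in old VSM cells, and DESeq2 called 6. Of 9 fibroblast markers, 8 had a higher mean, DESeq2 called 4, and their summed level was 732 to 1263 CPM in young and 1607 to 2557 CPM in old libraries. Macrophages can express Abca1, Apoe and Nr1h3 strongly. Of 16 macrophage markers 5 were in the table, with a summed level of 5.72 to 17.1 CPM in young and 11.4 to 17.9 CPM in old, and none was called. Cd68 was at 0.122 to 0.421 CPM in young and 0.281 to 0.693 CPM in old, and most of that sum was Cd14. Sums for the 3 measured adipocyte markers were 21.4 to 45.8 CPM in young and 39.9 to 83.6 CPM in old, and the difference was that of Lpl, which DESeq2 called as higher and which is also in the list of other LXR targets. The other adipocyte markers, Fabp4 and Pparg, had log2 fold changes of -0.02 and -0.10. Sums for Schwann cell markers were 13.7 to 75.7 CPM in young and 55.1 to 86.6 CPM in old, and DESeq2 called 1 of 4 as higher. Endothelial markers summed to 43.1 to 47.8 and 33.3 to 44.9 CPM, and DESeq2 called 2 of 7, Flt1 and Erg, as lower (log2 fold changes of -3.87 and -2.03). Pericyte markers summed to 951 to 1510.5 and 675 to 1526.5 CPM, most of it Pdgfrb, while 4 of the 5 had a lower mean and DESeq2 called Mcam and Cspg4 as lower (-3.63 and -1.40).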

How the data were processed

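Polyadenylated RNA of 6 cultures was sequenced. The authors deposited raw counts per gene, which are whole numbers without normalization. The methods state that Trim Galore 0.6.7 with cutadapt 3.5 removed adapters and low-quality bases and that reads were aligned to Rnor 6.0 with STAR 2.7.10b and counted with featureCounts (Subread 2.0.8). How strand, mates and multi-mapped reads were treated is not given in the sources used here. The table holds 14475 rows with Ensembl identifiers, 1518 without a symbol, and 0 sample columns were left unused. Library totals were 44235674 to 59700887.

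All rows were tested for old against young VSM cells with edgeR 4.0.16 in R 4.3.3 (TMM, quasi-likelihood F test, model of age, Benjamini-Hochberg adjustment over all rows). Each standard error is |log2 fold change|/√F. DESeq2 1.42.0 (independent filtering at 0.05, 292 rows with no adjusted p), limma-voom (limma 3.58.1), another filter, other scalings, halved counts, the replicate number as a block and each library left out were alternatives. The steps were tested on simulated data. Named genes were the 10 members, the 2 of each list with the lowest edgeR p, and a fixed set of others, of which some are not reported here. Genes and lists were chosen with earlier results of these data known. Promoters came from RefSeq (GRCr8). No transcript lengths were used, so levels were not compared between genes apart from count ratios and marker sums, which combine genes without length correction.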

Additional observations from a re-analysis of the deposited data

How the results depend on the processing

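The direction of all 10 members held in all 13 alternatives tried for each. No member passed an adjusted p of 0.05 in the main edgeR fit, and in 124 of 130 alternatives it still did not pass. In the other 6 it passed by the adjusted p of the alternative's own test. These were DESeq2 for Mylip, Abca1 and Apoe, and edgeR without old replicate 1 for Nr1h2, Mylip and Apoe. The number of members at an adjusted p under 0.05 in edgeR was 0, and it was 3 with DESeq2 and 0 to 3 with each library left out in turn. With a log2 fold change of at least 1 as well, it was 0, then 3 with DESeq2 and 0 to 2 with a library left out. Both upper values came without old replicate 1. At an adjusted p under 0.1, a limit added after seeing the data, 2 members were called in edgeR and 0 to 6 with a library left out. DESeq2's 3 members became 2 to 6 with a library left out, the 6 without old replicate 1, where it called 11.9% of all rows as higher, against 3.02% to 4.15% with another library left out. Over all rows, DESeq2 called 1767 and edgeR 1, and edgeR without old replicate 1 called 1380. With the replicate number as a block (replicate block), edgeR called 0 members, with an adjusted p of 0.0835 for Mylip and 0.112 for Abca1. Deviations of same-numbered libraries correlated at 0.03, 0.26 and 0.26, and young replicate 1 with old replicate 2 at 0.29, so the numbers were not taken as pairs. Of the other named genes, Lipa and Nceh1 changed sign when a library was left out, with ranges of -0.19 to 0.065 and -0.13 to 0.032. Depth limits Abcg1, at 34 to 161 counts, and Lipe, at 53 to 115 counts, and these counts may rest on fewer fragments.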
